A study of Mus musculus with 15 samples.

Results

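The immunity-related GTPases are large interferon-inducible GTP-binding proteins. Here 5 of their mouse genes were followed across heart and liver allografts: Irgm1 (NM_008326), Irgm2 (NM_019440), Igtp (NM_018738), Iigp1 (NM_021792) and Tgtp1 (NM_011579). The genes were chosen by name, and all of their probes on the array were taken, which gave 7 of 41174 probes and 5 of the 18221 gene symbols that could be assigned. Irgm1 and Tgtp1 had 2 probes each, and Irgm2, Igtp and Iigp1 had 1 probe each. Total RNA from 15 grafts or tissues of male mice had been hybridised to single-colour Agilent arrays, with 3 arrays in each of 5 groups. In the cardiac allografts, a C57BL/10 (B10, H-2b) heart was placed as a vascularised extra heart in the abdomen of a CBA (H-2k) recipient and taken on postoperative day (POD) 5. In the hepatic allografts, a B10.BR (BR, H-2k) liver replaced the liver of a B10.D2 (D2, H-2d) recipient and was taken at POD5 or POD8. The 3 cardiac and 3 hepatic controls are labelled as normal heart and liver, the study elsewhere calls its comparison tissue isografts, and their strain is not given in the sources used here. The study asked which genes change in acute rejection, and the comparisons below ask how this gene family stood in each graft. Each allograft carries recipient cells among its donor cells, and in bulk tissue more expressing cells and more RNA per cell cannot be told apart.

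In mice these GTPases defend cells against bacteria and parasites that live inside vacuoles. Interferon-gamma released by T cells and natural killer cells binds its receptor and acts through the kinases Jak1 and Jak2, and the transcription factor Irf1 takes part in switching on the GTPase genes. The family falls into regulators and effectors. The regulators Irgm1, Irgm2 and Igtp (also called Irgm3) sit on membranes of the cell itself and hold the other members in an inactive state. The effectors Iigp1 (Irga6) and Tgtp1 (Irgb6) gather on the vacuole around the intruder and break its membrane. Their transcription is raised by interferon without any intruder, and their RNA is widely used as a readout of interferon-gamma.

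The stretches of promoter that hold the interferon-type motifs are shown first. They are a feature of the 4 members searched that the choice of genes did not use. Promoters of the RefSeq set (mouse build GRCm38.p6, reference strain) were taken for Irgm1, Irgm2, Igtp and Tgtp1. In each, 250 bases before the start site were searched on both strands. Iigp1 was left out of the search, so nothing can be said of its promoter. The first motif, TTCNNNGAA, is the GAS type (interferon-gamma activated site), and the second, a pair of GAAA blocks with any 2 bases between them, is the ISRE type bound by interferon regulatory factors. Neither motif contains the other, and matches of the same motif were allowed to overlap. The motif matches are in capitals, and each sequence is written 5′ to 3′ on the strand of its gene, all of them on chromosome 11.
Irgm1, chr11:48871423-48871474, minus strand: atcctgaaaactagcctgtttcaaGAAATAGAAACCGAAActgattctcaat
Irgm2, chr11:58214878-58214934, plus strand: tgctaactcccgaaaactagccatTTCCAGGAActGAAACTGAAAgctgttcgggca
Igtp, chr11:58199487-58199543, plus strand: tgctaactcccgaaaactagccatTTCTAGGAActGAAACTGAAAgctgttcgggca
Tgtp1, chr11:48992302-48992358, minus strand: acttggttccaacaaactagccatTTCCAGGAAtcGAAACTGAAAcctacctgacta

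A GAS-type match stood in 3 of these 4 promoters and an ISRE-type match in 4 of 4, whereas 7.02% of 32851 promoters of the same length held the first motif, 2.98% the second and 0.332% both. In Irgm2, Igtp and Tgtp1 the ISRE-type match followed the GAS-type match after 2 further bases. Irgm1 had no GAS-type match in this window, and its 2 ISRE-type matches overlapped, from 30 to 21 and from 24 to 15 bases before the start site. The longest run that all 4 windows shared, which was sought for being shared, was the 9 bases AAACTAGCC shortly before the motifs. Over the aligned bases of the 250-base windows, Irgm2 and Igtp, which are neighbours on the chromosome, were identical at 92.1% (197 of 214), and the other pairs among the 4 members at 66.5% to 74.1%. A match is a description of letters and not a measured binding site.

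**Figure D1:**
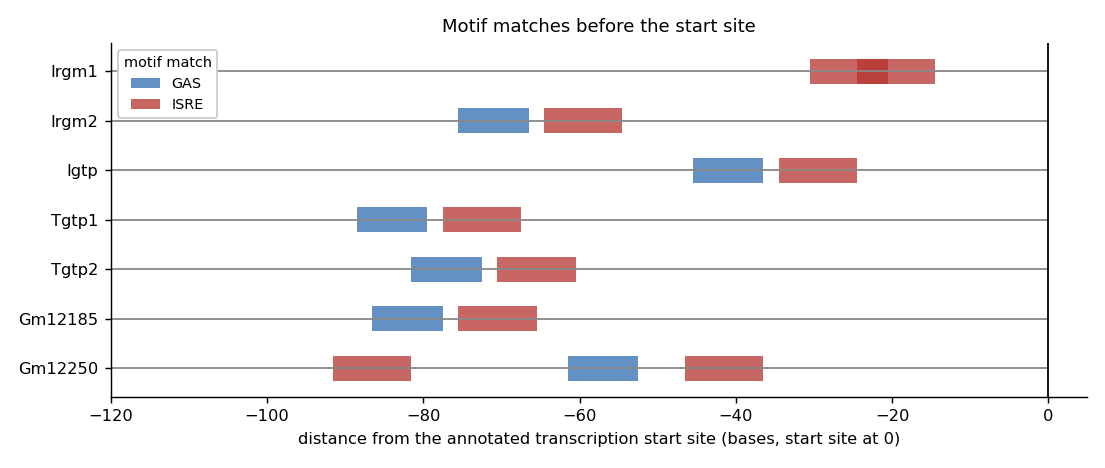
Position of the GAS-type (blue) and ISRE-type (red) motif matches before the annotated start site, in bases, for the 4 members searched and 3 relatives. The pair stands 2 bases apart in Irgm2, Igtp, Tgtp1, Tgtp2 and Gm12185, at distances that differ between genes, and Irgm1 shows only its 2 overlapping ISRE-type matches.

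Tgtp1 has a near-identical relative on the same chromosome, Tgtp2. The promoter window of Tgtp2 was 80.4% identical to that of Tgtp1 (176 of 219 bases) and held the same pair of motifs.
Tgtp2, chr11:49064261-49064317, minus strand: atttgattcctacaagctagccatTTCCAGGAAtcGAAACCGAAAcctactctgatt
No probe of the array was named for Tgtp2, and a Tgtp1 probe that also takes up Tgtp2 RNA cannot be told apart from one that does not.

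Each of the 7 probes was well above the local background on all 15 arrays, except the dimmer Tgtp1 probe on hepatic control 1. Levels are log2 of the processed signal after quantile normalization within an organ, and a log2 difference of 1 is a doubling. No spot was saturated. The 75th percentile of the unnormalized signal ranged from 394 to 710 in cardiac allografts, 1021 to 1247 in cardiac controls, 338 to 478 in hepatic allografts at both days and 92.1 to 226 in hepatic controls, and arrays of a group correlated at 0.965 to 0.992 over all probes. The cardiac allografts lay on slide 1 and the cardiac controls on slide 2, so in the heart the effects of slide and graft cannot be told apart. Hepatic POD5 allograft 3 was also on slide 1, POD5 allografts 1 and 2 on slide 3, POD8 allografts 1 and 2 with hepatic controls 1 and 2 on slide 4, and POD8 allograft 3 and hepatic control 3 on slides 5 and 6. The labels do not say whether the 3 samples of a group came from separate animals, so P-values measure the spread between these samples. The organ labels fitted their markers: all 7 measured cardiomyocyte genes were higher in heart than in liver controls and all 6 measured hepatocyte genes lower.

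In the cardiac allografts all 5 genes rose, by 13.1-fold to 40.1-fold at the brightest probe of each gene.  Irgm1 read 16.12, 15.76 and 16.00 in allografts and 11.84, 11.37 and 11.76 in controls. Irgm2 read 16.36, 15.44 and 16.22 in allografts and 12.52, 12.08 and 12.13 in controls. Igtp read 17.59, 17.42 and 17.61 in allografts and 13.29, 12.63 and 12.81 in controls. Each of the 3 regulators was thus above every control on every allograft array, and no group overlapped. The log2 difference was 4.30 ± 0.17 (SE) for Irgm1, which is 19.7-fold, with an adjusted P of 5.2e-04. Irgm2 differed by 3.77 ± 0.29 (13.6-fold, adjusted P 1.5e-03) and Igtp by 4.63 ± 0.19 (24.8-fold, adjusted P 5.3e-04). The other Irgm1 probe gave 4.64 ± 0.17, close to the first.

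Of the effectors, Iigp1 read 17.52, 16.85 and 17.45 in cardiac allografts and 13.67, 13.67 and 13.35 in controls. Tgtp1 read 16.71, 16.34 and 16.60 in allografts and 11.60, 10.94 and 11.12 in controls. The allografts again stood apart from the controls. Iigp1 differed by 3.71 ± 0.22 (13.1-fold, adjusted P 9.2e-04) and Tgtp1 by 5.33 ± 0.21 (40.1-fold, adjusted P 5.2e-04). The dimmer Tgtp1 probe read 11.62, 11.22 and 11.29 against 5.52, 4.90 and 4.93, a difference of 6.26 ± 0.22 (76.9-fold), or of 4.79 with normexp background correction.

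All 7 probes were called higher in the heart, where 15.3% of the 41025 probes tested were called higher and 16.1% lower at an adjusted P of 0.05 (limma, Benjamini-Hochberg). Every allograft array lay above every control array for 7 of 7 member probes and for 29% of all probes. By size of the difference the members ranked between 24 and 184 among all probes, their median being 4.63 against 0.01 over all probes. Scaling each array to its 75th percentile moved the median of all probes to 0.46 and the calls from 6281 higher and 6617 lower to 15698 and 5492, while the 7 members were still called higher. Cardiac allograft 2, the allograft array with the lowest 75th percentile, was the lowest of the 3 for every one of the 7 probes.

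**Figure D2:**
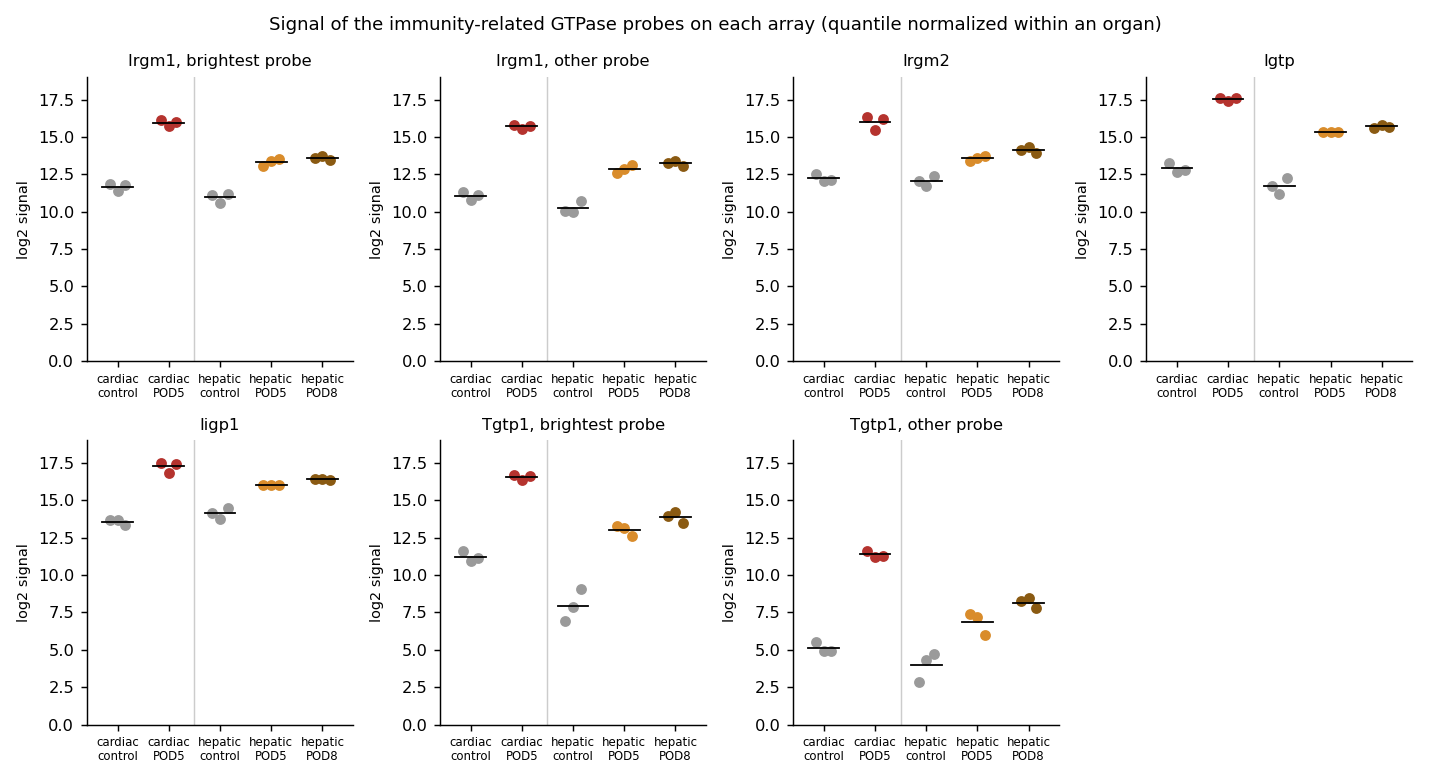
Log2 signal of each member probe on each of the 15 arrays (points), quantile normalized within an organ, with the group mean as a bar. Allografts lie above the controls of their organ for all 7 probes, and the hepatic controls of Tgtp1 are the most spread, from 6.92 to 9.09 at the brightest probe.

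In the hepatic allografts at POD5 the 5 genes also rose, over a wider range of 2.85-fold to 33.8-fold at the brightest probes. Irgm1 read 13.08, 13.36 and 13.52 in allografts and 11.13, 10.58 and 11.19 in controls. Irgm2 read 13.39, 13.56 and 13.75 in allografts and 12.07, 11.74 and 12.37 in controls. Igtp read 15.32, 15.36 and 15.32 in allografts and 11.69, 11.21 and 12.26 in controls. The regulators did not overlap with their controls, and Igtp stood farthest from them. The differences were 2.35 ± 0.20 for Irgm1 (5.12-fold, adjusted P 8.2e-04), 1.51 ± 0.20 for Irgm2 (2.85-fold, adjusted P 4.9e-03) and 3.61 ± 0.24 for Igtp (12.2-fold, adjusted P 3.6e-04). The other Irgm1 probe differed by 2.61 ± 0.24.

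Iigp1 read 16.01, 16.01 and 15.99 in hepatic POD5 allografts and 14.13, 13.77 and 14.49 in controls. Tgtp1 read 13.29, 13.18 and 12.64 in allografts and 6.92, 7.85 and 9.09 in controls. Iigp1 was nearly level across the 3 allografts, and Tgtp1 was the member whose controls varied most. Iigp1 differed by 1.87 ± 0.18 (3.66-fold, adjusted P 1.2e-03) and Tgtp1 by 5.08 ± 0.51 (33.8-fold, adjusted P 1.6e-03). At the dimmer Tgtp1 probe the readings were 7.39, 7.21 and 5.98 against 2.87, 4.32 and 4.69, and the difference was 2.90 ± 0.55 (7.45-fold, adjusted P 0.018). The 2 Tgtp1 probes therefore disagreed on the size of the rise in liver, though not on its direction. Hepatic control 3 was the highest control for all 7 probes.

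Called higher were 7 of 7 probes, against 5.76% of the 41152 probes tested in liver at POD5, with 4.16% called lower. All allograft arrays exceeded all control arrays for 7 of 7 member probes and for 12.4% of all probes. The members' median difference was 2.61, against -0.07 over all probes, and they ranked between 36 (Tgtp1) and 1910 (Irgm2) by size of the difference. With 75th percentile scaling the calls over all probes went from 2369 higher and 1713 lower to 2690 and 8385 and their median to -0.37, and the members were still called higher. The call of the dimmer Tgtp1 probe ended when POD5 allograft 1 (adjusted P 0.068) or 2 (adjusted P 0.058) was left out, in a fit of the POD5 and control arrays alone (adjusted P 0.076, or 0.073 with these 6 arrays also normalized alone), with the slide as a random block (adjusted P 0.053) and with the replicate number as a block (adjusted P 0.051), and its difference was 1.20 with normexp background correction.

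At POD8 the hepatic allografts stood 4.22-fold to 60.2-fold above the same controls. Irgm1 read 13.61, 13.70 and 13.48, Irgm2 14.15, 14.34 and 13.91, and Igtp 15.62, 15.81 and 15.69 in the 3 allografts. The differences from the controls were 2.63 ± 0.20 for Irgm1 (6.20-fold, adjusted P 5.5e-04), 2.08 ± 0.20 for Irgm2 (4.22-fold, adjusted P 1.4e-03) and 3.99 ± 0.24 for Igtp (15.8-fold, adjusted P 2.7e-04). All 3 regulators rose without overlap. Iigp1 read 16.46, 16.44 and 16.37 and differed by 2.29 ± 0.18 (4.89-fold, adjusted P 5.8e-04). Tgtp1 read 13.93, 14.20 and 13.47 and differed by 5.91 ± 0.51 (60.2-fold, adjusted P 9.5e-04), and its dimmer probe read 8.24, 8.46 and 7.77 and differed by 4.19 ± 0.55 (18.3-fold), or by 2.06 with normexp background correction. Both effectors rose and neither overlapped with the controls.

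The 7 probes were called higher at POD8, where 5% of the 41152 probes were called higher and 2.83% lower, and the allografts exceeded the controls without overlap at 7 of 7 member probes and at 12.9% of all probes. By size of the difference the members ranked between 9 (Tgtp1) and 992 (Irgm2). With 75th percentile scaling the calls over all probes changed from 2056 higher and 1164 lower to 2526 and 10974, with a median of -0.46, and all members stayed higher. Slide 4 held allografts 1 and 2 and controls 1 and 2, and with the slide as a block the differences were 2.80 for Irgm1, 2.34 for Irgm2, 4.26 for Igtp, 2.49 for Iigp1 and 6.68 for Tgtp1, each with an adjusted P between 0.010 and 0.019. Irgm1 and Tgtp1 were among genes that the study picked out from these arrays, so their calls are not independent evidence of a direction. The study also measured Tgtp1 by quantitative RT-PCR and reports more of its mRNA in cardiac and hepatic allografts than in isografts.

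**Figure D3:**
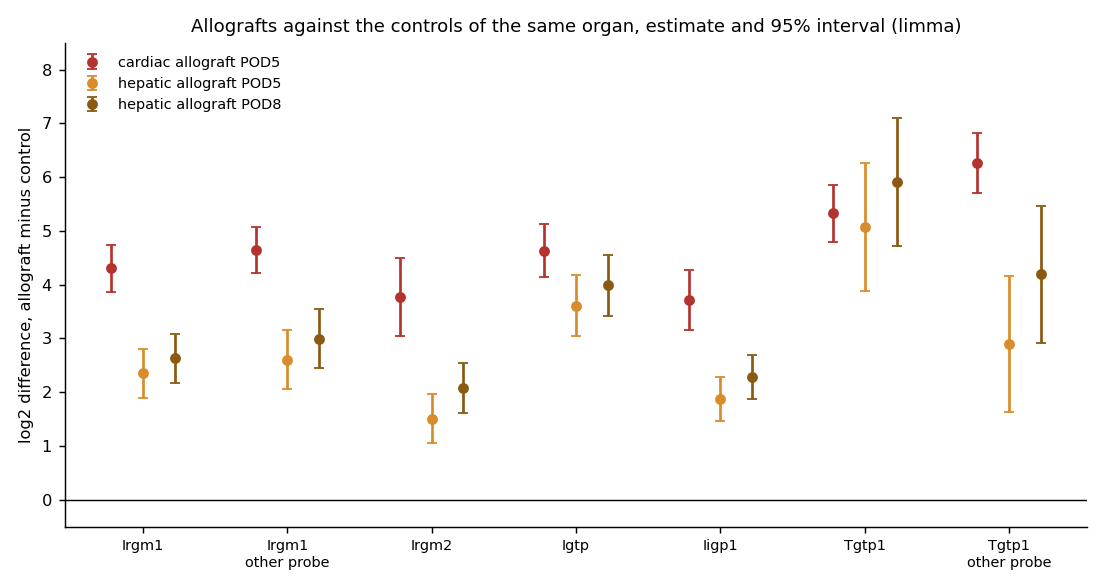
Log2 difference of the allografts from the controls of their organ for each member probe, with the limma estimate and its 95% interval. All intervals lie above 0, and the widest belong to the Tgtp1 probes in liver.

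Between POD5 and POD8 in the liver none of the 7 probes was called by limma, and 0.00729% of all probes (3 of 41152) were called higher and none lower. Irgm1 differed by 0.28 ± 0.20 (95% interval -0.18 to 0.73), Irgm2 by 0.57 ± 0.20 (0.10 to 1.03) and Igtp by 0.37 ± 0.24 (-0.19 to 0.93). Iigp1 differed by 0.42 ± 0.18 (0.01 to 0.83) and Tgtp1 by 0.83 ± 0.51 (-0.36 to 2.02), with 1.29 ± 0.55 (0.02 to 2.56) at its dimmer probe. The adjusted P-values were 0.57 to 0.78, and 3 probes (Irgm2, Iigp1 and the dimmer Tgtp1 probe) had an unadjusted P below 0.05. Every POD8 array lay above every POD5 array at 5 of the 7 probes, all but the 2 of Irgm1, and at 9.26% of all probes. Such a separation was not a call. The unadjusted intervals lay above 0 for those 3 probes and included 0 for the other 4.

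The organs were compared with all 15 arrays normalized together. In the controls, Iigp1 was 13.01, 13.00 and 12.67 in heart and 14.54, 14.20 and 14.89 in liver, and it was lower in heart by 3.13-fold (log2 difference -1.65 ± 0.22, adjusted P 4.9e-05). Irgm2 was 11.78, 11.30 and 11.36 in heart and 12.53, 12.22 and 12.81 in liver, 2.06-fold lower in heart (-1.04 ± 0.25, adjusted P 3.8e-03). Irgm1 differed by -0.61 ± 0.19 (adjusted P 0.019) and lost its call without cardiac control 2 (-0.46), hepatic control 1 (-0.53) or hepatic control 3 (-0.50), with the slide as a random block (adjusted P 0.066) and at its other probe (-0.54, adjusted P 0.055). Igtp was 12.59, 11.90 and 12.08 in heart and 12.17, 11.71 and 12.71 in liver, overlapping groups with a difference of -0.01 ± 0.23 and a 95% interval of -0.52 to 0.50. Tgtp1 ran the other way, with 10.81, 10.12 and 10.30 in heart and 7.49, 8.42 and 9.64 in liver (1.89 ± 0.43, adjusted P 2.6e-03), but its dimmer probe did not (-0.14 ± 0.46, adjusted P 0.82).

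Among the control hearts and livers 27.6% of 41003 probes were called higher in heart and 26.4% lower, and of the 7 member probes 3 were called lower and 1 higher. With 75th percentile scaling the median of all probes moved from -0.06 to -0.75 and the calls from 11306 higher and 10819 lower to 9190 and 19906. Calls in both directions were common over all probes, so those of the members do not set them apart. The order of the organs can be read only relative to the other probes. It was not firm for Irgm1, which lost its call in several settings, for Igtp, or for Tgtp1, whose probes differed. The values below depend on the same scaling.

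In the allografts of POD5 every member that was called was higher in heart. On the joint scale Irgm1 read 15.53, 15.17 and 15.41 in heart and 13.52, 13.80 and 13.95 in liver (1.62 ± 0.19, adjusted P 3.2e-05). Igtp read 17.33, 17.06 and 17.38 in heart and 15.70, 15.75 and 15.71 in liver (1.54 ± 0.23, adjusted P 2.3e-04). Irgm2 was higher in heart by 1.43 ± 0.25 and Tgtp1 by 2.52 ± 0.43, with 3.15 ± 0.46 at its dimmer probe. Iigp1 read 17.21, 16.36 and 17.10 in heart and 16.34, 16.34 and 16.33 in liver, a difference of 0.56 ± 0.22 that was not called (adjusted P 0.075) and was called without cardiac allograft 2 (0.84, adjusted P 4.2e-03). Thus 6 of 7 probes were called higher in the heart grafts, against 19.3% of all probes. With the slide as a block, which rests on hepatic allograft 3 beside the cardiac allografts on slide 1, the count called was again 6. The differences were 1.25 to 2.91 at the brightest probes of the called genes and 4.03 at the dimmer Tgtp1 probe. Over all probes this fit called 6631 of 41003 higher and 6139 lower.

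Whether the change itself differed between the organs was tested as an interaction at POD5. The rise was larger in heart for Irgm1 (2.22 ± 0.27, adjusted P 5.1e-04), Irgm2 (2.47 ± 0.35, adjusted P 1.2e-03), Igtp (1.54 ± 0.33, adjusted P 9.1e-03) and Iigp1 (2.20 ± 0.31, adjusted P 1.2e-03). For Irgm2 this meant a rise that was 5.54-fold larger in heart, and for Igtp 2.92-fold. These sizes hold on the joint scale, where the rises are not those given above within an organ. At the other Irgm1 probe the rises were 4.87 in heart and 2.52 in liver on the joint scale. Within an organ they were 4.64 and 2.61. Tgtp1 was the exception at its brightest probe, with 0.62 ± 0.61 (95% interval -0.70 to 1.95, adjusted P 0.50), whereas its dimmer probe gave 3.29 ± 0.66 (adjusted P 6.5e-03), so its change cannot be placed. The interaction was called larger in heart for 6 of 7 probes, and for 8.49% of all probes, with 9.54% called smaller. With 75th percentile scaling the calls went from 3483 larger and 3910 smaller to 13569 and 3284 and the median of all probes from 0.08 to 0.64, and 6 member probes were called as before. Donor and recipient strains, controls and slides also differed between the organs and cannot be told apart from the organ.

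**Figure D4:**
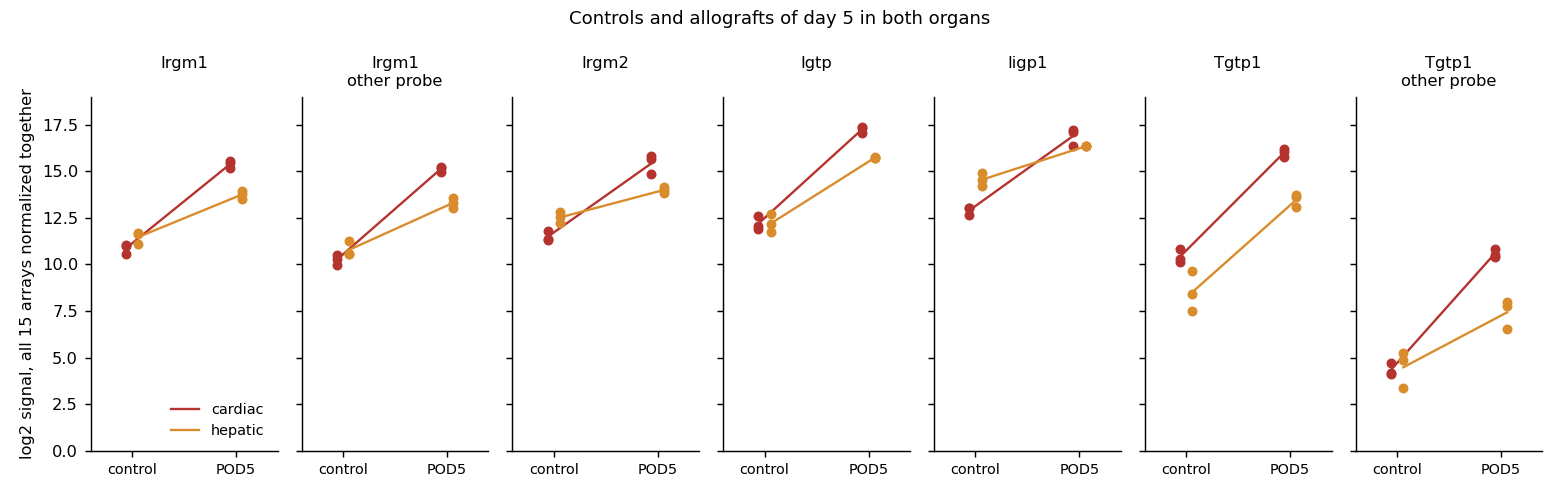
Log2 signal of each member probe in controls and POD5 allografts of heart (red) and liver (orange), with all 15 arrays normalized together. Points are arrays and lines join group means, and the cardiac line is the steeper for every probe, least so for the brightest Tgtp1 probe.

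Further immunity-related GTPase genes were taken as a list of 19 names, of which 6 were measured. In cardiac allografts 4 of the 6 rose and none fell, with a median difference of 4.70 against 0.01 over all probes. Gm12250, the next coding gene to Igtp, read 10.41, 10.63 and 10.70 in allografts and 5.40, 4.51 and 5.11 in controls (5.57 ± 0.25). Gm5431, next to Irgm1, rose by 4.82 ± 0.22 and 9930111J21Rik2, between Tgtp1 and Tgtp2, by 4.58 ± 0.10. Gm12185, next to Gm5431, read 10.81, 9.95 and 10.64 in allografts and was not well above background in any control, so that its rise was at least 161-fold (adjusted P 5.1e-04). Irgq and Irgc1, relatives not known to answer to interferon, were not called (-0.52 ± 0.29 and 0.69 ± 0.27), and Irgc1 was not well above background on any array of the heart. Before its start site Gm12185 held the motif pair of Irgm2, Igtp and Tgtp1, and Gm12250 held a GAS-type match between 2 reversed ISRE-type matches.
Gm12185, chr11:48927236-48927292, minus strand: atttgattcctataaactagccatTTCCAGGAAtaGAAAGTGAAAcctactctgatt
Gm12250, chr11:58183728-58183818, plus strand: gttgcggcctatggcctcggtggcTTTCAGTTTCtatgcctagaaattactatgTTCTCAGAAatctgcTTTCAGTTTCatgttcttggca
The promoter search was run for 6 of the listed relatives: Tgtp2, Gm12250, Gm5431, Gm12185, 9930111J21Rik1 and 9930111J21Rik2. Of these 6, 3 held a GAS-type and 3 an ISRE-type match. The other listed relatives, Irgq and Irgc1 among them, were not searched.

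In liver the same listed relatives were dim, which does not hold for the whole family. Ifi47, an immunity-related GTPase outside the list and described below, was well above background in all hepatic controls. Of the listed relatives 2 of 6 rose at POD5 and 3 of 6 at POD8, and none fell. Gm5431 and Gm12185 were called at both days but were not well above background in any hepatic control. At POD8 the rise was at least 1.43-fold for Gm5431 and at least 1.54-fold for Gm12185. At POD5 each was above background on 2 of 3 allografts, which allows a bound of at least 1.01-fold for Gm5431 and none for Gm12185. 9930111J21Rik2 was above background in no hepatic control and in all allografts, with an adjusted P of 0.053 at POD5 and 0.046 at POD8 (at least 1.03-fold). Gm12250 read 6.18, 6.44 and 4.59 at POD5 and 1.90, 1.92 and 7.60 in controls, where hepatic control 3 lay above all 3 POD5 allografts, and it was not called. The median difference of the 6 relatives was 1.93 at POD5 and 2.45 at POD8 with the fitted values, and 0.01 and 0.27 with the dim genes at their bounds.

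Interferon-gamma signalling was followed through 16 genes, all measured. In cardiac allografts 12 rose, 1 fell and 3 were not called, with a median of 2.20. The cytokine itself, Ifng, read 14.63, 15.98 and 15.71 in allografts and 5.21, 4.84 and 5.13 in controls (10.38 ± 0.38, adjusted P 5.1e-04). Socs1, the feedback inhibitor of the pathway, rose by 5.60 ± 0.25, Irf1 by 3.97 ± 0.16, and Ciita, the master regulator of MHC class II genes, by 3.95 ± 0.22. The receptor chain Ifngr2 fell by 0.65 on the log2 scale (SE 0.14), and Ifngr1, Jak1 and Pias1 were not called. Irf8, Nlrc5, Stat2, Ptpn6, Socs3, Jak2, Ptpn2 and Irf9 made up the rest of those that rose, from 3.65 for Irf8 to 0.52 for Irf9.

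In liver 7 of the 16 signalling genes rose at POD5 and 8 at POD8, and none fell. Ifng read 9.12, 9.38 and 10.25 at POD5 and 3.04, 4.18 and 4.25 in controls, the first of which was not well above background (5.77 ± 0.39, adjusted P 3.6e-04). At POD8 Ifng read 9.87, 10.16 and 9.92 (6.17 ± 0.39). Socs1 rose by 4.12 ± 0.25 at POD5, Ciita by 3.26 ± 0.19, Irf8 by 2.43 ± 0.20 and Irf1 by 1.76 ± 0.28. Ptpn6 and Ifngr1 rose by 1.21 and 1.08, and Jak2 differed by 0.72 ± 0.24 without a call, and by 1.04 ± 0.24 with a call at POD8. Nlrc5, the regulator of MHC class I genes, was not called in liver (0.14 ± 0.33 at POD5), nor was Stat2 (0.02 ± 0.20). The interaction was larger in heart for 8 of the 16 genes and smaller for 1. Among those named above it was 4.76 ± 0.58 for Ifng, 3.22 ± 0.43 for Nlrc5, 2.66 ± 0.34 for Stat2, 2.48 ± 0.35 for Irf1, 1.76 ± 0.37 for Socs1 and -1.41 ± 0.22 for Ifngr1.

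**Figure D5:**
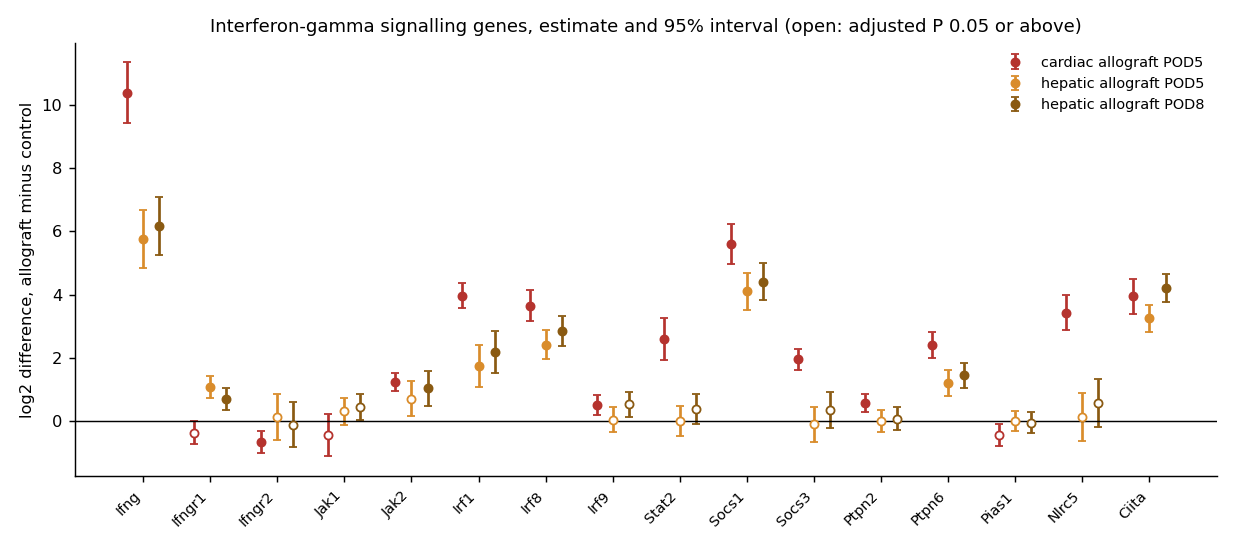
Log2 difference from the controls of the organ for the 16 interferon-gamma signalling genes, with the limma estimate and its 95% interval, for cardiac allografts and for hepatic allografts at POD5 and POD8. Open points had an adjusted P of 0.05 or above, and Ifng shows the largest difference in each comparison.

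Of 11 measured type I interferon genes and targets, 8 rose in cardiac allografts with a median of 1.18, and 5 rose in hepatic allografts at each day with medians of 1.0 and 1.24. Ifit2, an interferon-induced antiviral gene, rose by 3.20 ± 0.16 in heart, 2.99 ± 0.48 in liver at POD5 and 3.12 ± 0.48 at POD8. Ifnb1, which encodes interferon-beta, was not well above background on any array. Of 15 measured genes for the conjugation machinery that loads the effectors onto vacuoles, 2 rose and 2 fell in cardiac allografts, and 1 rose and 2 fell in hepatic allografts at each day. Trim21, an interferon-induced ubiquitin ligase, rose by 2.04 ± 0.12 in heart, 0.97 ± 0.24 at POD5 and 1.25 ± 0.24 at POD8. Becn1 rose by 0.69 ± 0.10 in heart, where Map1lc3b and Atg12 fell by 0.97 and 0.60, and Map1lc3a and Atg16l1 fell by 0.99 and 0.80 in liver at POD5. The medians of this list were -0.19, -0.11 and 0.00 in the 3 comparisons.

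Markers of other cell types were read beside the members. All 7 measured T cell markers rose in cardiac allografts and 5 of 7 at each day in hepatic allografts. Their level on the joint scale, as log2 of their mean signal, was 10.38 to 11.03 in cardiac allografts and 5.79 to 6.39 in cardiac controls, and 9.70 to 10.53 in hepatic allografts and 6.03 to 6.17 in hepatic controls. Cd8a, the coreceptor of cytotoxic T cells, rose by 5.93 ± 0.36 in heart and by at least 101-fold in liver at POD5, where it was not well above background in any control. Natural killer markers rose in 4 of 4, 2 of 4 and 2 of 4 in the same order of comparisons, with a level of 6.92 to 7.16 in cardiac allografts, 4.40 to 4.87 in cardiac controls, 5.14 to 5.90 in hepatic allografts and 3.12 to 3.61 in hepatic controls. At most 1 of the 4 natural killer markers was well above background on a hepatic control array. Klrk1, an activating receptor, rose in liver by at least 4.36-fold on the earlier day and 3.88-fold on the later, Eomes at least 1.41-fold at POD5, and no bound could be given for Ncr1 at POD8. Of macrophage and monocyte markers 1 of 6 rose in heart (level 12.84 to 13.04, controls 12.27 to 12.87) and 2 of 6 in liver at each day (11.33 to 11.97, controls 8.84 to 10.70). None of the 4 B cell markers was called. All 5 endothelial markers fell in heart, from a level of 11.66 to 11.96 to one of 9.97 to 10.06, and none was called in liver. The cardiomyocyte markers fell in 4 of 7 in heart, and none of the 6 hepatocyte markers was called in liver. What part these cell types had in the levels of the GTPases was not tested.

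The genes whose differences lay nearest to each member were sought among 12435 genes by the root mean square distance over the 3 log2 differences from controls, which is a description over 3 values, 2 of which share their controls. For Irgm1 these were Naaa (0.16), 9930111J21Rik2 and Tap1 (0.22). For Irgm2 they were Gpr84, Irf1 (0.20) and Slc2a6 (0.22), and for Igtp Serpina3f (0.11), H2-DMa (0.22) and H2-Ab1 (0.26). For Iigp1 they were Ifi47 (0.12), itself an immunity-related GTPase outside the list above, Irf1 (0.18) and Cabp4. No distance is given for 9930111J21Rik2, Gpr84 and Cabp4, which were not well above background in any hepatic control, so that their place among the nearest rests on background signal. Ifi47 differed by 3.66, 2.04 and 2.40 in cardiac allografts and in hepatic allografts at POD5 and POD8, where Iigp1 differed by 3.71, 1.87 and 2.29. For Tgtp1 the nearest were farther away, with Cd27 (0.38, well above background in 1 of the 3 hepatic controls), Ccl4 (0.57) and Nkg7 (0.59).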

How the data were processed

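The authors deposited single-colour array files whose processed signal is an intensity on a linear scale, made by Agilent Feature Extraction 10.5.1.1 with background subtraction and no normalization between arrays. Median spot and background intensities deposited beside it were used in 1 alternative. Groups came from the labels. The sources used here do not give the strain of the controls.

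From the processed intensity, spots marked as outliers were left out (47 to 113 per array), log2 was taken, spots of a probe were averaged, and arrays were quantile normalized within an organ, or over all 15 arrays to compare organs. A probe counts as well above background on an array when a share of its spots of 0.5 or more carries that mark of the scanner software. Probes were named by RefSeq accession from a GRCm38.p6 table, used for names and gene order only, and 26695 of 41174 matched (64.8%). Every probe with a value on all arrays of a fit was tested with limma 3.58.1 in R 4.3.3, with Benjamini-Hochberg adjustment over all probes at 0.05. With 3 arrays a group, the number of arrays limits the precision. Where a gene has more probes, the one with the highest mean signal stands for it. All probes are reported for the 5 members, and only that 1 probe for every other gene. A fold called "at least" is the mean of the allografts over the mean of the controls, with each control array at no less than its dimmest probe above background. Each fit was checked on simulated data with known changes. None of the 105 array pairs shared over 1% of values.

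The named genes are the 5 members with every probe, the listed relatives and pathway genes with those called or most changed, and for each member the 3 genes nearest in their differences. One listed gene is not reported here. The members and lists were chosen with earlier results of these data known. Alternatives were other normalizations, background corrections, filters, priors, blocks, the study's standardized fold change (SFC, bin size 1000) and the methods' t-test, and leaving out each array. Promoters were searched with Python 3.11.15, aligned with Biopython 1.88, and figures drawn with matplotlib 3.10.9.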

Additional observations from a re-analysis of the deposited data

Results flagged for a closer look

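The difference from the controls at POD5 was larger in heart than in liver by the interaction test for 4 genes and for 1 probe of the fifth. On the log2 scale, heart minus liver, it was 2.22 and 2.35 at the 2 Irgm1 probes, 2.47 for Irgm2, 1.54 for Igtp, 2.20 for Iigp1 and 3.29 at the dimmer Tgtp1 probe, with adjusted P-values of 5.1e-04 to 9.1e-03. These 6 of 7 probes compare with 8.49% of all probes. At the brightest Tgtp1 probe the value was 0.62. Organ, strains, controls and slides cannot be told apart in this contrast.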

How the results depend on the processing

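Without one array at a time, the 5 genes kept the direction and call of the main comparison in all 3 comparisons of allografts with controls. For the organ controls, Igtp changed sign around 0, with 0.055 under normexp background correction and values of -0.25 to 0.25 with 1 array left out, and Tgtp1 gave -0.14 at its other probe. Of the 7 member probes, limma with a Bonferroni adjustment called 4 in heart, 1 in liver at POD5 and 1 at POD8. It called 0 in the interaction, the organ controls and the organ allografts. Over all probes it called 64 of 41025 higher in heart, and of 41152 it called 116 at POD5 and 103 at POD8. Of 41003 probes it called 75 larger and 108 smaller in the interaction. The organ controls had 2767 called higher and 2466 lower, and the organ allografts 1273 and 1789. The methods' t-test with Bonferroni called 0 member probes in each allograft comparison, and 13, 4 and 13 of all probes higher. With Benjamini-Hochberg it called 7 members in heart, 0 at POD5 and 6 at POD8, and 5488, 175 and 615 of all probes higher. SFC with Bonferroni called 7, 3 and 7 members, and 140, 322 and 355 of all probes higher. At an unadjusted P under 0.05, limma gave 7, 7 and 7 member probes in the allograft comparisons, and the t-test 7, 7 and 7. At that threshold limma gave 6 in the interaction, 5 in the organ controls and 7 in the organ allografts. The share of all probes under this unadjusted threshold was not counted, so these member counts cannot be weighed against the array. In the organ controls 27.6% of all probes were called higher and 26.4% lower at the adjusted threshold already. The alternatives other than leaving out an array were also pooled over all comparisons. There 2 gene values were reversed, those of Igtp and Tgtp1 in the organ controls given above, and the others kept their direction. Of these, 384 were on the same side of the threshold, 50 weaker and 2 stronger. The 384 include values that stayed without a call, as between POD5 and POD8, so they do not measure how firm the calls are. Replicate numbers are shared by the groups but did not pair them (correlations of deviations -0.14 to 0.089). With the number as a block the counts were 7, 6 and 7, against 4238, 1788 and 1401 of all probes called higher. The normexp alternative used median signals. Over all probes, the calls higher in liver at POD5 went from 2369 to 1047 in a fit of the 2 groups and to 1096 with the same fit after normalizing these 6 arrays alone. Dim probes limit the liver values of the relatives.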
